A study of Rattus norvegicus with 10 samples.

Results

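Insl3, Prlr and Hsd11b1 encode a hormone, a hormone receptor and a steroid-converting enzyme known from testicular Leydig cells. The RNA was of whole testis, so which cells gave the signal of each gene was not tested. All probes whose transcript accession belongs to 1 of these 3 genes were taken. Each gene had 1 probe, so 3 probes of 30367 were followed, and all 3 were among the 21892 probes that passed the filter on dim signals, which name 11561 genes. The genes were chosen from the difference between the 2 groups of arrays over all 10 arrays, so that difference is given for them as a description, with no test.

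Total RNA came from whole testes of rats on postnatal day 6, offspring of Brown Norway males and Sprague Dawley females, and 100 ng per sample were labelled with Cy3 and hybridised to one-colour Agilent arrays. The code of the father carries a T on 5 arrays and a C on 5. T is read here as the fathers given BEP and C as those given saline, in both cases for 9 weeks followed by 9 weeks of recovery, and no label states this reading of the letters. BEP usually stands for bleomycin, etoposide and cisplatin, a chemotherapy for testicular cancer, but the labels name no drugs and no dose. The mothers' treatment and the number of pups behind an array are not given in the sources used here, so p-values measure only the spread between these samples, which may be technical.

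INSL3 is a peptide hormone of the insulin and relaxin family that Leydig cells release, and through its receptor RXFP2 it drives the descent of the testis in the fetus. The prolactin receptor is a cytokine receptor that signals through the kinase JAK2 and the transcription factor STAT5, and in rodent Leydig cells prolactin helps to maintain the receptor for luteinizing hormone. HSD11B1 is an enzyme of the endoplasmic reticulum that converts inactive 11-keto glucocorticoids to active ones with NADPH supplied by H6PD, and in the rat testis it is known as a product of maturing Leydig cells. In the first postnatal week the Leydig cells of the rat testis are mainly of the fetal type, and the adult type has yet to form.

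Promoter sequence was available for 2 of the 3 genes and is shown because motifs for factors measured on these arrays could be looked up in it. The windows below end just before the annotated transcription start, are written in the direction of transcription and come from RefSeq on the GRCr8 build. In the Insl3 window, at chr16:18432939-18433188 on the plus strand, the capitals mark the complement of AGGTCA, the half-site recognised by the nuclear receptors NR5A1 and NR4A1. RefSeq gives Prlr more than 1 start, and the window of the second, at chr2:60909409-60909658 on the plus strand, has capitals at a match to TTCNNNGAA, the STAT element, and at AGAACA, a half-site of the glucocorticoid receptor.
Insl3: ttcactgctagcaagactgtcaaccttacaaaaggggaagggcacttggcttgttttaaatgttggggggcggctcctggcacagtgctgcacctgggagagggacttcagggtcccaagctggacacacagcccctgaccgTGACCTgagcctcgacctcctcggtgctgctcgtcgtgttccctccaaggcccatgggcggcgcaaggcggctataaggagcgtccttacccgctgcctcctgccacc
Prlr: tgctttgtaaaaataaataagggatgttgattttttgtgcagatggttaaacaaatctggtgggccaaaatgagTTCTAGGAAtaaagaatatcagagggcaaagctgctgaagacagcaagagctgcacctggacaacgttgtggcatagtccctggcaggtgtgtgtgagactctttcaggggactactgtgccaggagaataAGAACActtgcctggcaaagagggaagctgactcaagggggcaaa
Both strands were searched, and motifs could overlap, as AGGTCA does with AAAGGTCA. AGGTCA occurred in 14.1% of 33469 RefSeq rat promoter windows of the same length, TTCNNNGAA in 7.67% and AGAACA in 17.5%. The match in Insl3 begins 108 bases before the start, and those in Prlr begin 176 and 45 bases before it. The letters TATAAA, present in 12.9% of windows, and AAAGGTCA, present in 1.24%, were in neither window. The window of the first Prlr start, at chr2:60861515-60861764, held none of these 5 motifs. A match in letters is a description of the sequence and shows no binding.

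Levels are given as log2 of the spot signal relative to the 75th percentile of the same array, so a value of 0 is that percentile, and they compare a gene between arrays but not with another gene. That percentile lay between 1525 and 2686 signal units, and both extremes were C arrays. Each array had 70.4% to 74.8% of its probes well above background, and pairs of arrays correlated at 0.9899 to 0.9966 over the probes kept. The filter was passed by 8 of 9 Leydig markers, 8 of 9 Sertoli markers and 8 of 8 germ cell markers. It was also passed by 7 of 7 macrophage and 7 of 7 duct epithelium markers, and by 11561 of all 15154 genes with a probe. These counts therefore do not show which tissue was sampled. Lhcgr, the receptor for luteinizing hormone and a defining Leydig marker, had its probe well above background on 0 of 10 arrays. Sox9, a defining Sertoli marker, was matched to no probe and was not analysed here. The arrays lay on 2 slides, with 2 T and 3 C arrays on slide 1 and 3 T and 2 C arrays on slide 2.

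Across the whole table, limma called 0 of 21892 probes (0.0%) between T and C after Benjamini-Hochberg adjustment at 0.05, and the 3 genes were among those not called. Without adjustment 869 probes (3.97%) had p under 0.05, of which 349 were higher in T.

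After scaling, Insl3 was higher on all T arrays than on 4 of the 5 C arrays, and its range was narrower in T. Neither held in the signal units before scaling, which are given below. The scaled levels of Insl3 were 2.25, 2.46, 2.33, 2.34 and 2.39 on T arrays 1 to 5, against 2.71, 1.95, 1.80, 2.10 and 1.49 on C arrays 1 to 5. Of the C arrays 4 lay below every T array, and C replicate 1 lay above every T array, so the scaled levels overlapped through that array alone. Of 21870 probes with a value on all arrays, 1.71% had at least 4 C arrays below every T array. The means were 2.36 ± 0.08 in T and 2.01 ± 0.45 in C (SD, n = 5 each), a difference of 0.35 ± 0.18 (SE), or 1.27-fold. In bulk testis, a difference in the share of Leydig cells and one in mRNA per Leydig cell cannot be told apart.

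**Figure D1:**
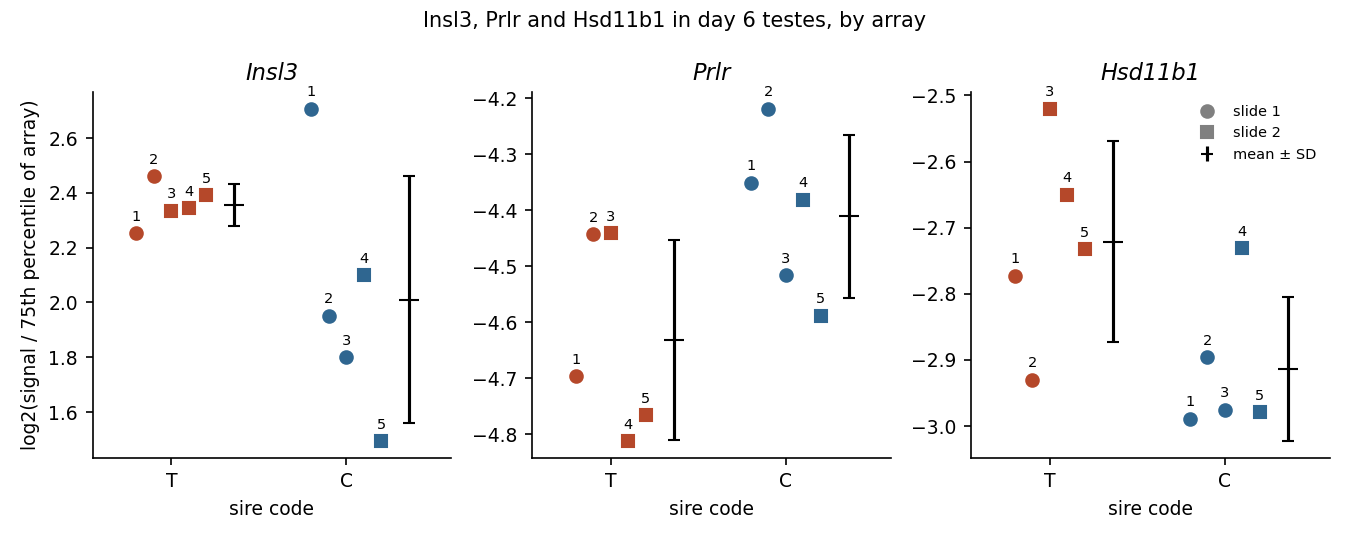
Level of each gene on every array (y axis, log2 of signal over the 75th percentile of the array), T left of C, with the replicate number at each point, circles for slide 1, squares for slide 2 and bars for mean ± SD of 5 arrays. Insl3 has 4 C arrays below all T arrays and C replicate 1 above them, Prlr has 3 T arrays below all C arrays, and Hsd11b1 has 2 T arrays above all C arrays.

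The difference in Insl3 depended on single C arrays. Without C replicate 1 it was 0.52, and without C replicate 5, the lowest array, it was 0.22. C replicate 1 was the highest of the 10 arrays with scaling to the 75th percentile, the median or quantiles, after normexp background correction and in the authors' deposited log2 values, where it stood at 0.37. In signal units before scaling it was not the highest: Insl3 gave 9076, 11523, 10946, 12874 and 12983 units on T arrays 1 to 5 and 9961, 9082, 9352, 8383 and 7001 units on C arrays 1 to 5. C replicate 1 was also the array with the lowest 75th percentile, and whether that bears on its Insl3 level was not tested. The 2 Insl3 spots of an array differed little, with a median SD of 0.017 and at most 0.067, far less than the SD of 0.45 between C arrays. These spots share an array's labelling, hybridisation and scaling, so their SD leaves out the error between samples.

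Prlr ran the other way, with lower levels in T. It was at -4.70, -4.44, -4.44, -4.81 and -4.77 on T arrays 1 to 5, against -4.35, -4.22, -4.52, -4.38 and -4.59 on C arrays 1 to 5. Of the T arrays 3 lay below every C array, and 3 C arrays lay above every T array, while the remaining arrays overlapped. At least 3 T arrays below every C array were found for 7.94% of probes. The means were -4.63 ± 0.18 in T and -4.41 ± 0.15 in C (SD, n = 5 each), a difference of -0.22 ± 0.10 (SE), or 0.858 times the C level. The Prlr signal was low, averaging 91.3 ± 11.3 units on T arrays and 103 ± 20.1 units on C arrays, although the probe was well above background on all 10.

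The Prlr probe was printed in 10 spots per array, which gives its own measure of error. The SD between spots of an array was 0.061 to 0.204, with a median of 0.104, so the standard error of an array's mean was 0.019 to 0.064. The SD between array means was 0.18 in T and 0.15 in C. Spots share an array's labelling and hybridisation, so their scatter leaves out the error between samples. One spot on T replicate 3 carried the outlier mark of the scanner software and was left out. With normexp background correction, which treats dim signals differently, the difference shrank to -0.12.

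**Figure D2:**
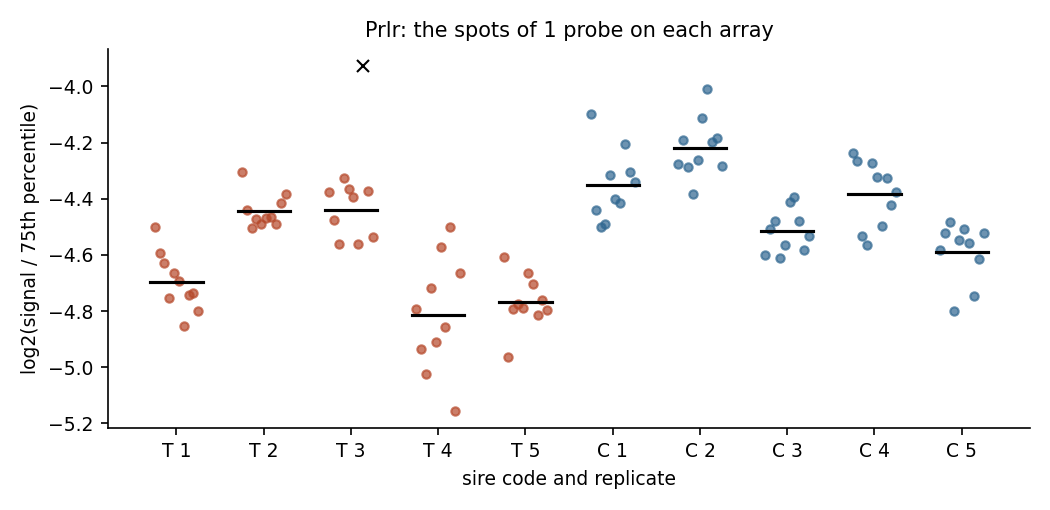
Each spot of the Prlr probe on every array (y axis, log2 of signal over the 75th percentile of the array; x axis, arrays with T left of C), with the array mean as a line and the spot left out as a cross. Spots of an array scatter with a median SD of 0.104, and the spots of T replicates 1, 4 and 5 sit low.

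Hsd11b1 was slightly higher in T. Its levels were -2.77, -2.93, -2.52, -2.65 and -2.73 on T arrays 1 to 5, against -2.99, -2.90, -2.98, -2.73 and -2.98 on C arrays 1 to 5. T replicates 3 and 4 lay above every C array, 3 C arrays lay below every T array, and the others overlapped. At least 3 C arrays below every T array were found for 6.57% of probes. The means were -2.72 ± 0.15 in T and -2.91 ± 0.11 in C (SD, n = 5 each), a difference of 0.19 ± 0.09 (SE), or 1.14-fold. The signal was 275 to 404 units on T arrays and 192 to 342 units on C arrays. The 2 spots of an array had a median SD of 0.050 and at most 0.121.

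The genes were chosen by these differences, so a sign that holds under other processing is no independent support, and the filters and the variance model leave the estimates as they are. Over the settings plotted, Insl3 ranged over 0.20 to 0.56, Prlr over -0.27 to -0.12 and Hsd11b1 over 0.10 to 0.25. Within slide 1 alone the differences were 0.20 for Insl3, -0.21 for Prlr and 0.10 for Hsd11b1. Within slide 2 alone they were 0.56 for Insl3, -0.19 for Prlr and 0.22 for Hsd11b1. The difference between the slides in this contrast (slide 2 minus slide 1, limma interaction) was 0.36 ± 0.37 for Insl3 (SE, adjusted p = 0.992). In the same limma fit it was 0.02 ± 0.21 for Prlr (adjusted p = 0.9985) and 0.12 ± 0.15 for Hsd11b1 (adjusted p = 0.992). That interaction called 0 of 21892 probes. With 2 or 3 arrays of a group on a slide, these p-values do not show that the slides agree.

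**Figure D3:**
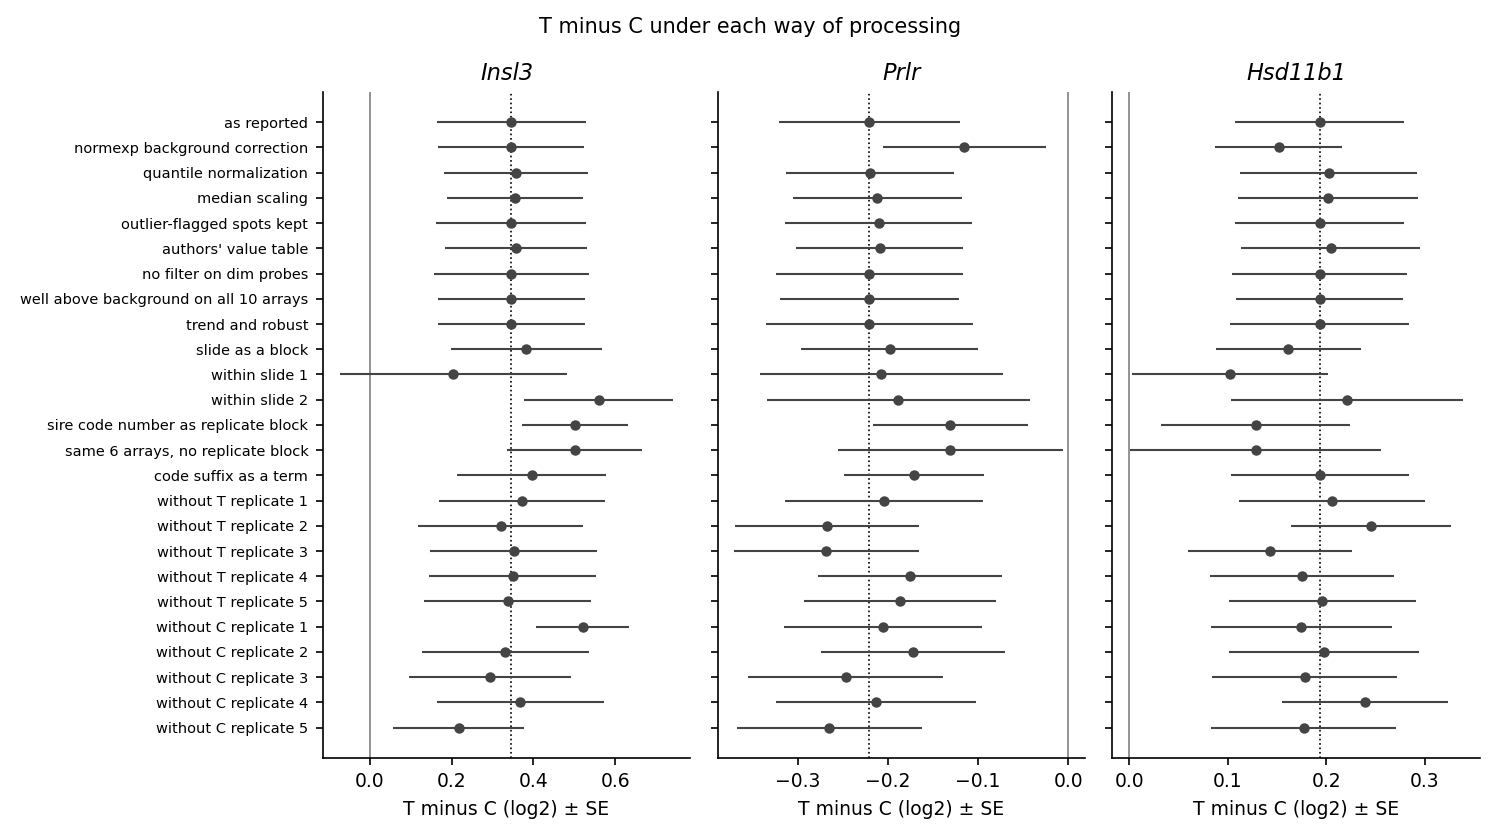
T minus C of each gene (x axis, log2, with the standard error as bars) under each way of processing (rows), where the dotted line is the reported value and the grey line is 0. Insl3 runs from 0.20 within slide 1 to 0.56 within slide 2, and Prlr is nearest to 0 with normexp background correction, at -0.12.

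Slide itself was not used to choose the genes and could be tested with the group as a covariate. In limma, 2143 of 21892 probes (9.79%) differed between the slides after adjustment, and none of the 3 genes was among them. Slide 2 minus slide 1 was -0.18 ± 0.18 for Insl3 (SE, adjusted p = 0.611), -0.11 ± 0.10 for Prlr (adjusted p = 0.533) and 0.16 ± 0.07 for Hsd11b1 (adjusted p = 0.224). For Hsd11b1 the value went to -0.00066 with normexp background correction.

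The genes differed in how much their scaled levels varied among the arrays of a group. Insl3 had a pooled within-group SD of 0.32, above that of 85.5% of all kept probes and of 95.3% of the 1000 probes nearest to it in mean signal. Prlr had a pooled SD of 0.16, equal to the median of all probes and above 22.2% of the 1000 nearest in mean signal. Its level is a mean of 10 spots per array, against 2 for Insl3 and Hsd11b1, so spot error weighs less in its SD. The part of this in its rank was not tested. Hsd11b1 had a pooled SD of 0.13, above 36.3% of all probes and 30.3% of the nearest. After scaling, the spread of Insl3 lay in the C arrays. Its SD was 0.08 in T and 0.45 in C, a C-to-T ratio of 5.88, while the median ratio over all probes was 1.02. That ratio exceeded the ratios of 99.7% of probes. Without C replicate 1 the C SD of Insl3 was 0.26 and the ratio 3.39, against a median of 0.90 over all probes. For Prlr the SDs were 0.18 in T and 0.15 in C, and for Hsd11b1 they were 0.15 in T and 0.11 in C. In signal units before scaling, the SD of Insl3 was larger in T, where the mean was larger too. It was 1602 units on a mean of 11480 in T, against 1133 units on a mean of 8756 in C. These SDs are in units and not in log2, so they cannot be set directly against the ratio of 5.88. The part of the scaling in the C-to-T ratio of Insl3 was not tested.

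Insl3 was next set against the other Leydig genes of the same arrays. The mean level of 7 other Leydig markers (Star, Cyp11a1, Cyp17a1, Hsd3b1, Hsd17b3, Nr5a1 and Scarb1) was 0.65, 1.02, 0.99, 0.60 and 1.02 on T arrays 1 to 5, against 1.08, 0.70, 0.70, 0.69 and 0.97 on C arrays 1 to 5. These ranges overlap, and C replicate 5, the array with the least Insl3, had the second highest marker mean of the C arrays. Insl3 minus that mean was 1.35 to 1.74 in T and 0.52 to 1.63 in C, a difference in means of 0.32. Taken the same way, the difference between T and C was -0.25 for Prlr and 0.17 for Hsd11b1, so each was close to its value without the Leydig markers. Over the 8 Leydig markers kept, Insl3 included, the summed level relative to the 75th percentile was 30.4 to 46.6 on T arrays and 33.1 to 42.1 on C arrays.

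The genes around INSL3 were divided between higher and lower values. Of 13 genes listed for the INSL3 system, 9 passed the filter, of which 4 were higher and 5 lower in T. The 4 higher include Insl3 itself, which was chosen by this difference. Limma called 0 of them, and the median difference was -0.01, against -0.02 over all kept probes, of which 41.5% were higher in T. Rxfp2, which encodes the receptor of INSL3, was well above background on 2 of 10 arrays, so it gave no value. Rxfp1, the receptor of relaxin, differed by -0.27 ± 0.20 (SE) and also between the slides, by 0.52 ± 0.14 (slide 2 minus slide 1, limma adjusted p = 0.0449). The relaxin gene Rln1 differed by 0.19 ± 0.10 and the related Insl6 by 0.25 ± 0.17.

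Nr4a1, an immediate-early nuclear receptor that activates Insl3 and steroidogenic genes in Leydig cells, had the largest difference of the list. Its level was 0.07 to 0.72 on T arrays and -0.27 to -0.10 on C arrays, so the groups did not overlap, which held for 0.722% of probes. The means were 0.31 ± 0.30 in T and -0.18 ± 0.06 in C (SD, n = 5 each), a difference of 0.50 ± 0.13 (SE) that limma did not call (adjusted p = 0.9985). Nr5a1, the steroidogenic factor that shares its half-site, averaged -2.39 ± 0.13 in T and -2.30 ± 0.26 in C, a difference of -0.09 ± 0.12. Within the groups, Insl3 correlated at 0.05 with Nr4a1 and at 0.69 with Nr5a1 over the 10 arrays, and the value for Nr5a1 was 0.02 without C replicate 1.

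Testosterone synthesis, the other main product line of Leydig cells, gave 5 genes higher and 7 lower in T among 12 that passed of 13 listed, with 0 called and a median difference of -0.02. Star, which moves cholesterol into mitochondria, differed by -0.05 ± 0.24 (SE). Cyp11a1, which makes pregnenolone, differed by 0.16 ± 0.19. Cyp17a1, which leads to androgens, differed by 0.07 ± 0.26. Hsd17b3, which makes testosterone, differed by -0.05 ± 0.09. Each of these differences was smaller than its own standard error.

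For the prolactin receptor, 21 of 22 listed signalling genes passed the filter, with 8 higher and 13 lower in T, 0 called and a median difference of -0.01. The 13 lower include Prlr itself, which was chosen by this difference. The probe of Prl itself, the pituitary hormone, was well above background on 0 arrays. Jak2, the receptor's kinase, differed by -0.01 ± 0.09 (SE). Stat5a differed by 0.18 ± 0.10 and Stat5b by -0.11 ± 0.10, so the 2 STAT5 genes went opposite ways. Cish and Socs2, feedback inhibitors that STAT5 induces, differed by 0.04 ± 0.11 and -0.03 ± 0.09. Socs3, a further inhibitor, differed by 0.02 ± 0.15 between T and C, while slide 2 minus slide 1 was -0.47 ± 0.06 (limma adjusted p = 0.00083).

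For HSD11B1, 19 of 20 listed genes of glucocorticoid metabolism and response passed, with 14 higher and 5 lower in T, 0 called and a median difference of 0.03. The 14 higher include Hsd11b1 itself, which was chosen by this difference. Hsd11b2, the enzyme that inactivates glucocorticoids, averaged 0.55 ± 0.20 in T and 0.30 ± 0.09 in C (SD, n = 5 each), a difference of 0.25 ± 0.10 (SE) in the same direction as Hsd11b1. H6pd, which supplies NADPH to HSD11B1, differed by 0.04 ± 0.12, and its other probe by -0.08. Nr3c1, the glucocorticoid receptor, differed by -0.07 ± 0.08 and on its other probe by -0.20, and Nr3c2, the mineralocorticoid receptor, by 0.09 ± 0.09. Among glucocorticoid-induced genes, Fkbp5 differed by -0.08 ± 0.08, Tsc22d3 by 0.03 ± 0.07, Per1 by -0.02 ± 0.14 and Sgk1 by 0.02 ± 0.11.

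Under the reported processing, no pair of the 3 genes passed a test of varying together across testes. With normexp background correction, Insl3 and Prlr passed it by Pearson r (0.731, exact permutation, adjusted p = 0.0306). They did not pass by rho (0.721, exact permutation, adjusted p = 0.1325), and r was 0.549 without C replicates 1 and 5. The values that follow are for the reported processing. With group means removed, Insl3 and Prlr correlated at r = 0.397 over 10 arrays (exact permutation within groups, two-sided p = 0.241, adjusted over 3 pairs 0.722; rho = 0.297, p = 0.422), and at 0.312 without C replicates 1 and 5. Insl3 and Hsd11b1 correlated at r = -0.037 (exact p = 0.897, adjusted 0.897; rho = -0.091, p = 0.814), and at 0.093 without the same 2 arrays. Prlr and Hsd11b1 correlated at r = 0.078 (exact p = 0.853, adjusted 0.897; rho = 0.079, p = 0.848), and at -0.372 without C replicate 2 and T replicate 3. With the slide removed as well, r was 0.320 for Insl3 and Prlr, 0.223 for Insl3 and Hsd11b1 and 0.469 for Prlr and Hsd11b1. A p above the threshold does not show that 2 genes are unrelated.

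The unscaled log2 signals of the genes followed the brightness of their arrays to different degrees. With group means removed, the correlation with the log2 of the 75th percentile over 10 arrays was 0.053 for Insl3, 0.776 for Prlr and 0.898 for Hsd11b1. Scaling subtracts that percentile, so a gene whose signal does not follow it is set lower on bright arrays by construction. After scaling the values were -0.776 for Insl3, -0.425 for Prlr and 0.057 for Hsd11b1, which are given without a test for that reason. Without C replicates 1 and 3, the extremes of brightness, the scaled value of Insl3 was -0.421. The part of this in the levels above was not tested.

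The genes most like each of the 3 were listed by the correlation of group-centred levels over the 10 arrays, as a description in which all genes share arrays and scaling. For Insl3 they were Snrpb (0.976), R3hdml (0.961), Vmac (0.955), Zdhhc21 (0.954) and Snrk (0.950). With quantile normalization Snrpb dropped to 0.524. For Prlr they were Mul1 (0.941), Tapbp (0.929), Clcn3 (0.922), Rfx7 (0.913) and Hs3st3a1 (0.901). For Hsd11b1 they were Ccdc80 (0.925), Sorl1 (0.919), Plvap (0.898), Rps6ka1 (0.897) and Lrrc43 (0.874). The top 1% of all genes began at r = 0.849 for Insl3, 0.772 for Prlr and 0.727 for Hsd11b1.

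Insl3 had a higher median correlation with fetal Leydig markers than with steroidogenic ones, a difference that was not tested. The median correlation with Insl3 was 0.60 over 5 fetal Leydig markers, 0.21 over the 7 other Leydig markers and 0.08 over 12 genes of testosterone synthesis, beside 0.15 over all genes. Dlk1, a marker of fetal Leydig cells, reached 0.77, Gata4, a transcription factor of gonadal somatic cells, 0.68 and Thbs2, a fetal Leydig marker, 0.60. Star gave 0.10 and Cyp17a1 0.07. The fetal examples lay at or above their list's median, while Star and Cyp17a1 lay below that of the other Leydig markers. Nr5a1, also among the other Leydig markers, was about as high as Gata4, as given above. Some lists of other cell types were as high as the fetal Leydig list. The median was 0.62 over 5 markers of peritubular myoid cells, 0.63 over 5 of endothelium and 0.65 over 4 of fat. For Sertoli markers it was -0.25 and for germ cell markers -0.19. C replicate 1 carried much of these values. Without it the median was 0.31 over fetal Leydig markers, 0.04 over the other Leydig markers and 0.00 over testosterone synthesis, beside 0.11 over all genes. Dlk1 was then at 0.57, Gata4 at 0.34, Thbs2 at 0.31, Star at -0.64 and Cyp17a1 at -0.29. The myoid median was -0.04, the endothelial one 0.47, the fat one 0.40, the Sertoli one -0.04 and the germ cell one -0.20. With quantile normalization and all arrays, the median was 0.57 over fetal Leydig markers and 0.06 over the other Leydig markers, beside -0.04 over all genes. The part of the other cell types in the spread of Insl3 was not tested.

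The levels of those markers between the groups stand beside the Insl3 values. All 5 myoid markers were lower in T, with a summed level of 17.4 to 20.1 on T arrays and 18.2 to 24.8 on C arrays. Of 8 fat markers 4 passed the filter, 3 of them lower in T, with a summed level of 0.342 to 0.632 on T arrays and 0.461 to 0.666 on C arrays, and the defining markers Adipoq, Plin1, Cidec and Lep did not pass. Of 5 endothelial markers 4 were higher in T, with a summed level of 2.63 to 3.02 on T arrays and 2.28 to 2.91 on C arrays. Of 5 fetal Leydig markers 4 were lower in T, with a median difference of -0.09, the opposite direction to Insl3, and the 8 adult and progenitor Leydig markers divided into 5 higher and 3 lower, with a median of 0.03. Of the remaining lists, 2 of 8 Sertoli, 7 of 8 germ cell, 4 of 7 macrophage, 6 of 7 duct and 4 of 4 erythroid markers were higher in T. The erythroid markers had a summed level of 66.0 to 88.8 on T arrays and 41.7 to 82.1 on C arrays. Limma called 0 genes of any marker list.

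For Prlr and Hsd11b1 the fetal Leydig list lay close to all genes when all arrays were used. With Prlr the median correlation was 0.21 over 8 Leydig markers, 0.07 over fetal Leydig markers and 0.31 over Sertoli markers, beside 0.11 over all genes. With Hsd11b1 it was 0.01 over fetal Leydig markers, -0.16 over 8 Leydig markers and -0.13 over adult and progenitor Leydig markers, beside -0.00 over all genes, and 1 of the 8 Leydig markers correlated above 0. Without C replicate 1 the Hsd11b1 median was -0.08 over Leydig and 0.21 over fetal Leydig markers, and with quantile normalization it was -0.35 over Leydig markers. For Prlr the Leydig median was 0.18 without C replicate 1 and 0.07 with quantile normalization, and its fetal Leydig median was -0.04 and -0.13 in these settings. The plot of medians sets these lists side by side.

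**Figure D4:**
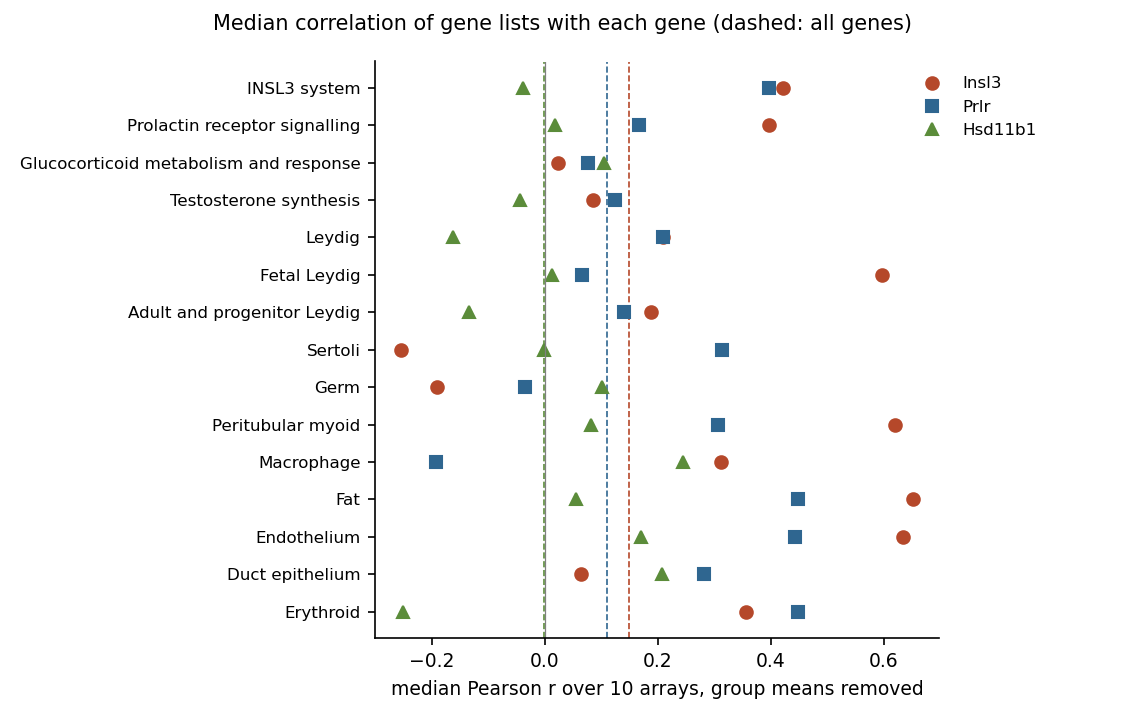
Median Pearson correlation of each gene list (rows) with Insl3, Prlr and Hsd11b1 over 10 arrays with group means removed (x axis), where dashed lines mark the medians over all genes. For Insl3 the fetal Leydig, myoid, endothelial and fat lists lie at 0.60 to 0.65, against 0.15 over all genes, and for Hsd11b1 the Leydig list lies at -0.16. Without C replicate 1 the fetal Leydig and myoid medians with Insl3 were 0.31 and -0.04.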

How the data were processed

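Testis RNA of 10 day 6 samples (5 T, 5 C, 1 array per sire code) was measured on one-colour arrays. The deposited spot intensities came from Agilent Feature Extraction 10.7.3.1 per the file headers (10.7 in the submitters' processing notes), with its background subtraction. The authors' deposited log2 table (21193 non-control probes, centred per probe) followed the scanner values at r = 0.9978 to 0.9987, with higher values for more signal; its scaling between arrays is unknown. Its column medians were 0.0033, 0.0038, -0.0027, -0.0171 and -0.0025 for T replicates 1 to 5 and 0.0291, 0.00025, -0.0167, 0.0203 and -0.0091 for C replicates 1 to 5.

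Of 62976 spots, 4259 controls were left out, and spots carrying the scanner's outlier mark (494 to 745 per array) were set missing. The log2 of the processed signal had the 75th percentile of its array subtracted, and spots of a probe were averaged. Probes well above background on at least 5 of 10 arrays were kept. Accessions were named through RefSeq genes of GRCr8 (17998 probes). The array design used another build, so no probe coordinates are given. Groups, and slides with group as covariate, were compared with limma 3.58.1 in R 4.3.3 (two-sided, Benjamini-Hochberg), checked on simulated data. The number of arrays limits the precision. Normexp (offset 50) used the median spot signal.

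The 3 genes, the 4 pathway lists, the 11 marker lists, a panel of 25 genes and the rules were chosen with earlier results of these data known. Genes named in the text are the 3 genes, that panel, the 5 genes most correlated with each, and members of the lists given as examples after their values were seen (Rln1, Insl6, Dlk1, Gata4, Thbs2). For a gene with several probes, the brightest stood for it. Of the panel, 1 gene is not reported here.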

Additional observations from a re-analysis of the deposited data

Results flagged for a closer look

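Nr5a1 had 1 T array far from the other 4. Its levels were -2.33, -2.31, -2.39, -2.63 and -2.32 on T arrays 1 to 5, so T replicate 4 lay below the rest, and the gap to the nearest array made up 0.761 of the whole range, against a critical value of 0.71 for 5 arrays. Among 50 groups of 5 arrays over 25 genes it was the one that passed, and chance passes about 1 in 20 such groups.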

How the results depend on the processing

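Limma called 0 probes between T and C in all 24 alternatives, with 481 to 1151 at an unadjusted p under 0.05. The sign of the T minus C values of Insl3, Prlr and Hsd11b1 did not change, but they were chosen by that difference, and the filters and the variance model cannot move it. Leaving out 1 array at a time gave 0.217 to 0.520 for Insl3, -0.268 to -0.173 for Prlr and 0.143 to 0.245 for Hsd11b1. The number of probes called between the slides ranged from 1277 to 2753 on leaving out 1 array (2143 with all), with 1277 without C replicate 5, 1334 without T replicate 1 and 1410 without T replicate 2, where fewer arrays were fitted; of the calls 253 were higher on slide 2, and 504 of 2220 with the authors' values. The Hsd11b1 slide difference was -0.00066 with normexp. Correlations between the genes were less stable, and the cause was not tested. Insl3 with Prlr gave -0.040 without centring, -0.010 with quantile normalization and 0.731 with normexp. For that normexp value the adjusted exact permutation p was 0.0306 by r and 0.1325 by rho. On leaving out 1 array, Insl3 with Prlr gave 0.178 to 0.530. Insl3 with Hsd11b1 gave 0.223 with the slide removed, 0.301 without centring, 0.515 with normexp, 0.305 without C replicate 1, 0.054 without T replicate 2, and -0.212 to 0.305 on leaving out 1 array. Prlr with Hsd11b1 gave -0.336 without centring, -0.0073 without C replicate 5, -0.286 without T replicate 3, and -0.286 to 0.527 on leaving out 1 array. Added after seeing the data were likeness under quantile normalization, likeness and spread without C replicate 1, the relation to the 75th percentile and the 6 arrays without the block. Another probe per gene could not be tried, since each had 1.

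The sire codes share the numbers 2, 4 and 6 between T and C. Same-numbered arrays correlated at -0.512, 0.283 and 0.194 in their deviations, so the numbers were not taken as pairs. With the number as a replicate block over these 6 arrays, Insl3 gave 0.501, Prlr -0.131 and Hsd11b1 0.128, with 0 probes called (697 at an unadjusted p under 0.05, 714 for the same arrays without the block). Prlr lay at about 100 units, where background handling moved its difference most.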
